A study of Mus musculus with 16 samples.

Results

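The 9 genes described here encode the constant part of mouse antibodies and their joining chain. They are the heavy chain constant genes Ighm (IgM), Ighd (IgD), Ighg1, Ighg2b, Ighg2c and Ighg3 (IgG subclasses) and Igha (IgA), the kappa light chain constant gene Igkc, and Jchain. They were chosen by name from a table of 54532 genes, and all 9 were found. The choice was made with earlier results of these data known, so the levels and differences below are a description of these tumours, and none of them is support for the choice.

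An antibody pairs heavy chains with kappa or lambda light chains. A naive B cell makes its heavy chain from Ighm and, by alternative splicing of the same transcript, from Ighd, and class switch recombination later replaces these with a gamma, epsilon or alpha gene. Plasma cells, which descend from B cells, secrete antibody in bulk, and Jchain is the small protein that holds polymeric IgM and dimeric IgA together. Melanoma cells are not antibody producers, and immunoglobulin RNA in a tumour is usually read as a trace of B lineage cells within it.

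RNA was sequenced from 16 end-stage tumours of B16F10, a mouse melanoma line, grown under the skin of the right flank of C57BL/6J mice of both sexes that were 8 weeks of age. The tumour cells were wild-type (WT) or BdP, the same line lacking Pros1, which the titles call deficient and another label a knockdown. Pros1 encodes Protein S, a ligand of the TAM receptor kinases; the hosts carry no stated change, and the labels do not say whether BdP is 1 clone. From day 8 after implantation, mice were injected intraperitoneally with PBS or with cisplatin, a DNA-damaging platinum compound (5 mg/kg each time), on 3 days running in each of 2 rounds. Each of the 4 groups (WT PBS, WT cisplatin, BdP PBS and BdP cisplatin) held 4 tumours, and a name such as BdP PBS 2 gives the group and the label's replicate number. The labels do not say that the replicates came from separate animals, so p-values measure the spread between these tumours only.

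Levels are given in FPKM as deposited, that is, fragments counted on a gene relative to its length and to the depth of the library, with the authors' scaling between libraries. Reads assigned to genes, recovered from the FPKM steps, ran from 10051843 to 27055771 per library. Mitochondrial transcripts took 76.9% of the reads in WT PBS 1, 21.7% in WT cisplatin 4, 12.2% in WT cisplatin 3 and 2.03% to 5.06% in the other 13 libraries. WT PBS 1 had 2322202 other reads, so 1 read there is worth more FPKM than in any other library. Pros1 ran from 4.79 to 11.5 FPKM in the WT tumours and from 1.24 to 2.52 FPKM in the BdP tumours, so its level matched the labels in all 16. The melanoma genes Pmel, Tyrp1, Dct and Mlana were at high levels throughout, and the summed level of 8 such genes ran from 4903 to 8928 FPKM.

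The 7 heavy chain genes lie on the minus strand of chromosome 12 of GRCm38, in the order of transcription Ighm (113418558 to 113422730), Ighd (113406604 to 113416324), Ighg3 (113356224 to 113361232), Ighg1 (113325240 to 113330523), Ighg2b (113302965 to 113307933), Ighg2c (113285325 to 113288932) and Igha (113254830 to 113260236). The epsilon gene Ighe (113269260 to 113273248), not among the 9, lies between Ighg2c and Igha. Igkc is a single constant exon on the plus strand of chromosome 6 (70726435 to 70726966), and Jchain lies on the minus strand of chromosome 5 (88519809 to 88527891). All 9 positions were those of the GENCODE M21 annotation. The long non-coding gene Gm30211 overlaps Igkc on the same strand, and it reached at most 2.50 FPKM in any tumour.

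How far reads can be told apart between these genes depends on their sequences. The opening 60 coding bases of the 4 gamma genes are given because 38 of the 60 positions are the same in all 4, and capitals mark the 22 that differ.
Ighg1: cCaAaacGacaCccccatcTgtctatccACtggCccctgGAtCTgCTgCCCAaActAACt
Ighg2b: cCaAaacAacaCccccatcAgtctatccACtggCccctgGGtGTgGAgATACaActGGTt
Ighg2c: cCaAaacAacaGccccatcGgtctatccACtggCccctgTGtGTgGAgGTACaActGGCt
Ighg3: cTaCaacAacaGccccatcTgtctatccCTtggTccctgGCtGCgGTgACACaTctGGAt
These windows are chr12:113330464-113330523, chr12:113307874-113307933, chr12:113288873-113288932 and chr12:113361173-113361232, all in the opening constant exon and read on the minus strand. Over the whole coding sequence, the 6 pairs of gamma genes were 76.9% to 87.3% identical where they aligned. The longest stretch that Ighg2b (chr12:113306869-113306946) and Ighg2c (chr12:113287869-113287946) share without a mismatch is 78 bases, and it is shown because a read inside it belongs to either gene.
Ighg2b and Ighg2c: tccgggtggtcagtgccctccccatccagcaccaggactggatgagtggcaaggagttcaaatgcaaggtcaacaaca
Of all 50-base windows of a gene's transcript, 5.49% in Ighg2c, 4.15% in Ighg2b, 1.58% in Ighg3 and 0.393% in Ighg1 recur in another of the 9 genes, so the split between gamma genes is slightly uncertain.

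The opening coding bases of Igha, Ighm, Ighd and Igkc, the genes on which the results turn, stand apart from each other and from the gamma genes.
Igha: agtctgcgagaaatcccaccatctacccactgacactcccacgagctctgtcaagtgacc
Ighm: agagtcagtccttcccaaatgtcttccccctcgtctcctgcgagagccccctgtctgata
Ighd: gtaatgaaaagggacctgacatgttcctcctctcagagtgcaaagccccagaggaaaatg
Igkc: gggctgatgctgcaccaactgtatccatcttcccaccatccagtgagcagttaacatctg
They lie at chr12:113260177-113260236, chr12:113422671-113422730 and chr12:113416265-113416324 on the minus strand and at chr6:70726435-70726494 on the plus strand. Igha shares no run longer than 12 bases with any other heavy chain gene, and 0 of its 50-base windows recur among the 9 genes. The level of Igha is therefore not touched by sharing of reads with them at that length.

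Igkc, the kappa light chain, had the highest mean level of the 9 genes in every group, and its level differed 31.4-fold to 80.9-fold between the lowest and highest tumour of a group. In WT tumours under PBS it was at 0.962, 4.59, 32.3 and 2.28 FPKM in replicates 1 to 4, from 1, 40, 439 and 32 reads. In WT tumours under cisplatin it was at 5.49, 7.98, 172 and 37.5 FPKM. In BdP PBS it was at 348, 965, 15.6 and 113 FPKM, and in BdP cisplatin at 7.72, 624, 54.5 and 151 FPKM. The BdP PBS tumours overlapped the WT PBS tumours, because BdP PBS 3 stood below WT PBS 3. Group means were 10.0 ± 14.9 FPKM in WT PBS, 55.8 ± 79.0 in WT cisplatin, 360 ± 427 in BdP PBS and 209 ± 283 in BdP cisplatin (SD, n = 4). The SD exceeded the mean in each group, so every difference between these means was smaller than the SD of the group with the higher mean.

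Ighm, the heavy chain of IgM, followed Igkc from tumour to tumour. In WT PBS it was at 1.90, 2.20, 26.1 and 1.38 FPKM, and in WT cisplatin at 2.75, 3.29, 91.2 and 13.4 FPKM. In BdP PBS it was at 93.5, 382, 9.30 and 56.5 FPKM, and in BdP cisplatin at 2.71, 284, 36.6 and 53.0 FPKM. WT PBS 3, WT cisplatin 3, BdP PBS 2 and BdP cisplatin 2 were the high tumours of their groups for Ighm as for Igkc. Ighd, the heavy chain of IgD on mature naive B cells, was at 0, 0.803, 1.75 and 0.299 FPKM in WT PBS and at 1.02, 0.430, 33.7 and 5.24 FPKM in WT cisplatin. It was at 36.2, 131, 1.33 and 23.2 FPKM in BdP PBS and at 1.10, 142, 7.56 and 26.7 FPKM in BdP cisplatin. The 0 in WT PBS 1 allows up to 0.808 FPKM, the value of 3 reads in that shallow library. In each of the 4 comparisons between groups, the tumours overlapped for Ighm and for Ighd.

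Of the IgG genes, Ighg2c, an IgG2 subclass gene of C57BL/6 mice, reached the highest level. It was at 0.386, 0.368, 4.96 and 0.0856 FPKM in WT PBS, at 0.109, 0.554, 24.6 and 3.34 in WT cisplatin, at 76.1, 47.4, 0 and 1.09 in BdP PBS, and at 1.68, 6.81, 3.70 and 10.2 in BdP cisplatin. The BdP PBS group thus held both the 2 highest tumours and the only one with no Ighg2c read. Ighg1 was at 21.1 and 10.3 FPKM in BdP PBS 1 and 2 and at 2.43 FPKM or less in the other 14 tumours, with 0 reads in 5 of them. Ighg2b reached 15.0 and 28.2 FPKM in the same BdP tumours and at most 4.36 FPKM elsewhere. Ighg3 passed 1 FPKM in those tumours alone, at 3.23 and 3.14 FPKM. Its highest level in any other tumour was 0.864 FPKM, and it was the 1 gene of the 9 too low for the test across all genes.

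Jchain, which links antibody polymers, was low in most tumours. It was at 0.203, 0.0485, 0.746 and 0 FPKM in WT PBS and at 0.229, 0.178, 3.55 and 0.440 FPKM in WT cisplatin. In BdP PBS it was at 8.02, 10.5, 0.270 and 1.50 FPKM, and in BdP cisplatin at 0.149, 2.34, 1.07 and 1.22 FPKM. It was highest in BdP PBS 1 and 2, as the gamma genes were. Its level in BdP cisplatin 2, the tumour second in Igkc, was below that in WT cisplatin 3.

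Igha, the heavy chain of IgA, was low everywhere and had another pattern than the other 8 genes. It was at 0, 0.0686, 0.0147 and 0 FPKM in WT PBS, from 0, 3, 1 and 0 reads. In WT cisplatin it was at 0.797, 0.750, 1.19 and 1.31 FPKM, from 59, 49, 66 and 41 reads. In BdP PBS it was at 2.18, 2.32, 2.04 and 2.87 FPKM, from 176, 147, 136 and 217 reads. In BdP cisplatin it was at 0.0587, 0.764, 0.0354 and 1.32 FPKM, from 5, 47, 2 and 77 reads. The 4 BdP PBS tumours lay above all 12 others, and the 4 WT PBS tumours lay below all WT cisplatin and all BdP PBS tumours. BdP cisplatin was the group that spread, with 2 tumours near the WT PBS level and 2 within the range of WT cisplatin or beside it. Group means were 0.0208 ± 0.0326 FPKM in WT PBS, 0.544 ± 0.617 in BdP cisplatin, 1.01 ± 0.281 in WT cisplatin and 2.35 ± 0.364 in BdP PBS (SD, n = 4). BdP cisplatin and its neighbours in this order overlap. The 0 in WT PBS 1 allows up to 0.576 FPKM at 3 reads, and the 0 in WT PBS 4 up to 0.0426 FPKM. Such limits cover counting error only.

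The spread of Igha within BdP PBS was also unlike that of the other genes. Its highest BdP PBS tumour was 1.41-fold above its lowest. The same ratio was 39.0 for Jchain, 41.1 for Ighm, 62.0 for Igkc and 98.7 for Ighd. BdP PBS 3, the tumour lowest in Igkc of its group, kept Igha at 2.04 FPKM, and Igha there came to 13.1% of the Igkc level. The corresponding share was 14.5% in WT cisplatin 1 and 0.0650% in BdP cisplatin 3.

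**Figure D1:**
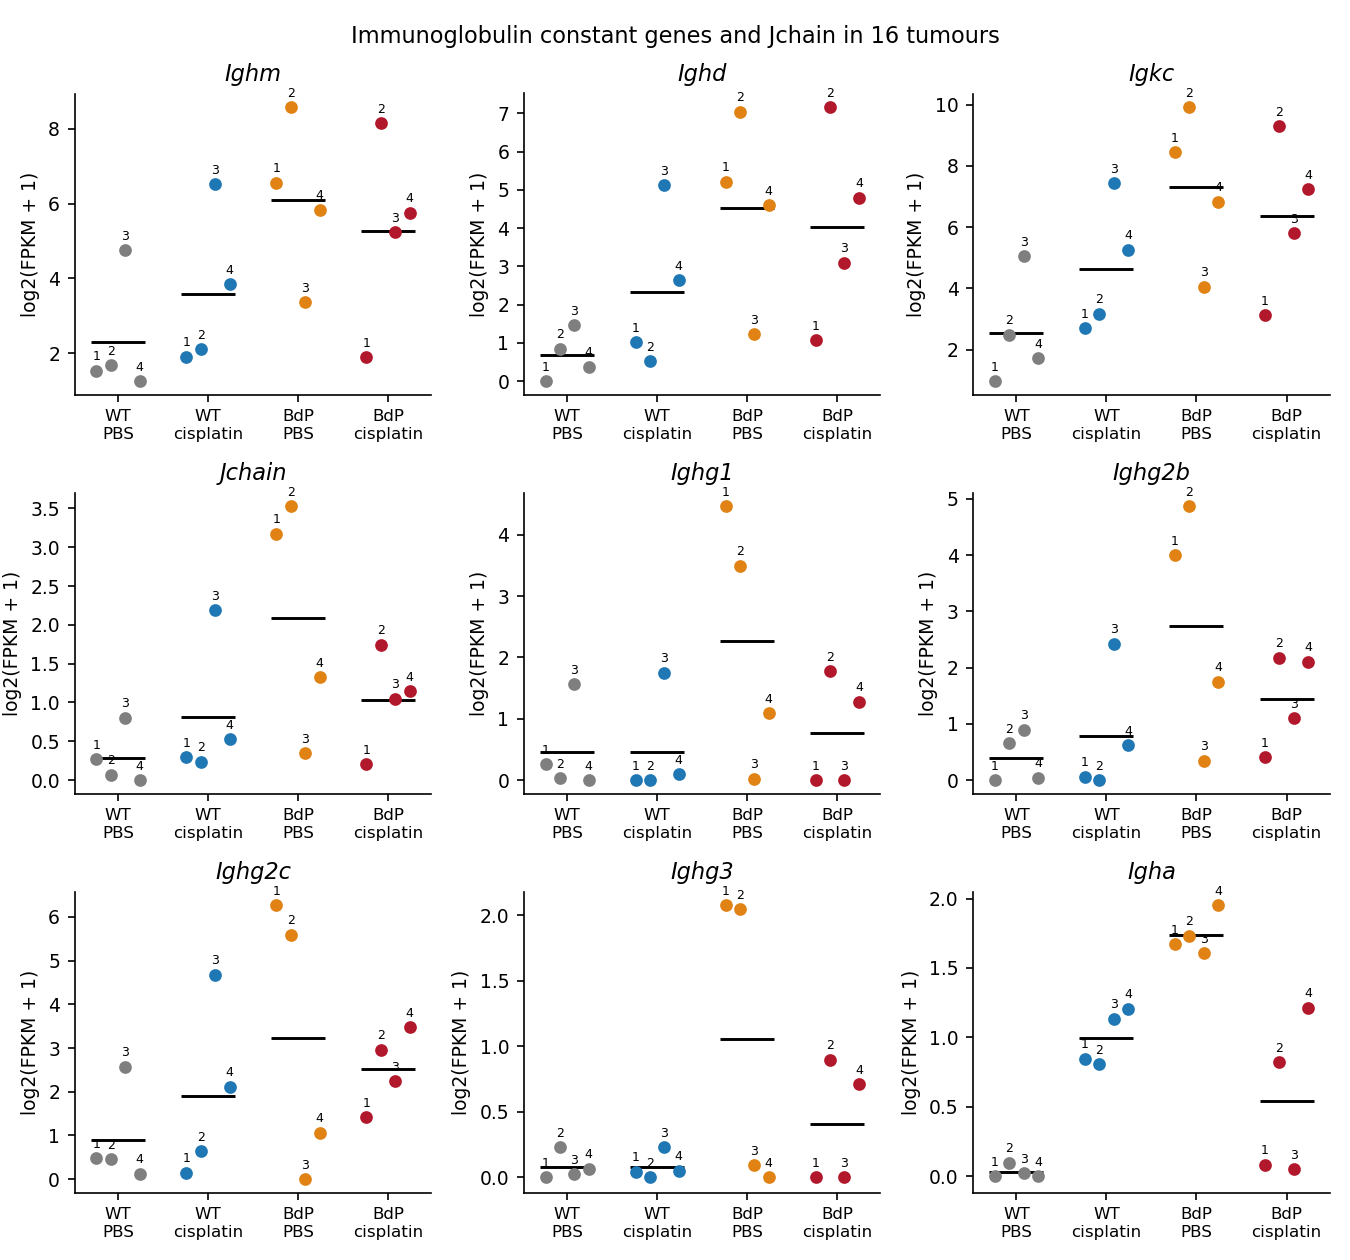
Level of each of the 9 genes, as log2(FPKM + 1) on the vertical axis, in the 4 groups on the horizontal axis; each point is 1 tumour with its replicate number and the line is the group mean. For 8 genes the tumours of a group spread widely and the groups overlap, while the 4 BdP PBS tumours lie above all others for Igha.

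The order of tumours was much alike for the genes other than Igha. BdP PBS 1 and BdP PBS 2 were among the 3 highest tumours for all 9 genes. The remaining tumour of these 3 was BdP cisplatin 2 for 5 genes, WT cisplatin 3 for Ighg2b, Ighg2c and Jchain, and BdP PBS 4 for Igha. Among the 28 pairs of genes without Igha, Spearman's rho over the 16 tumours ran from 0.505 to 0.988, with a median of 0.829. In the 8 pairs with Igha it ran from 0.369 to 0.675, with a median of 0.618. These values describe tumours that share groups and are not tests.

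**Figure D2:**
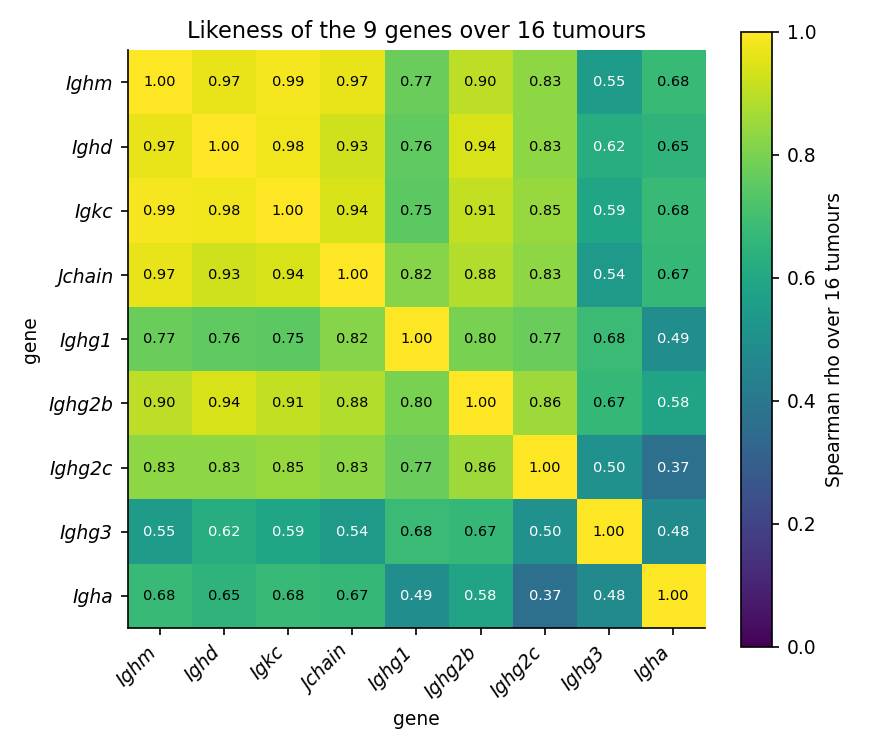
Spearman's rho of log2(FPKM + 1) over the 16 tumours for every pair of the 9 genes, shown by colour and printed in each cell, with the genes on both axes. Pairs without Igha run from 0.505 to 0.988 and pairs with Igha from 0.369 to 0.675.

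**Figure D3:**
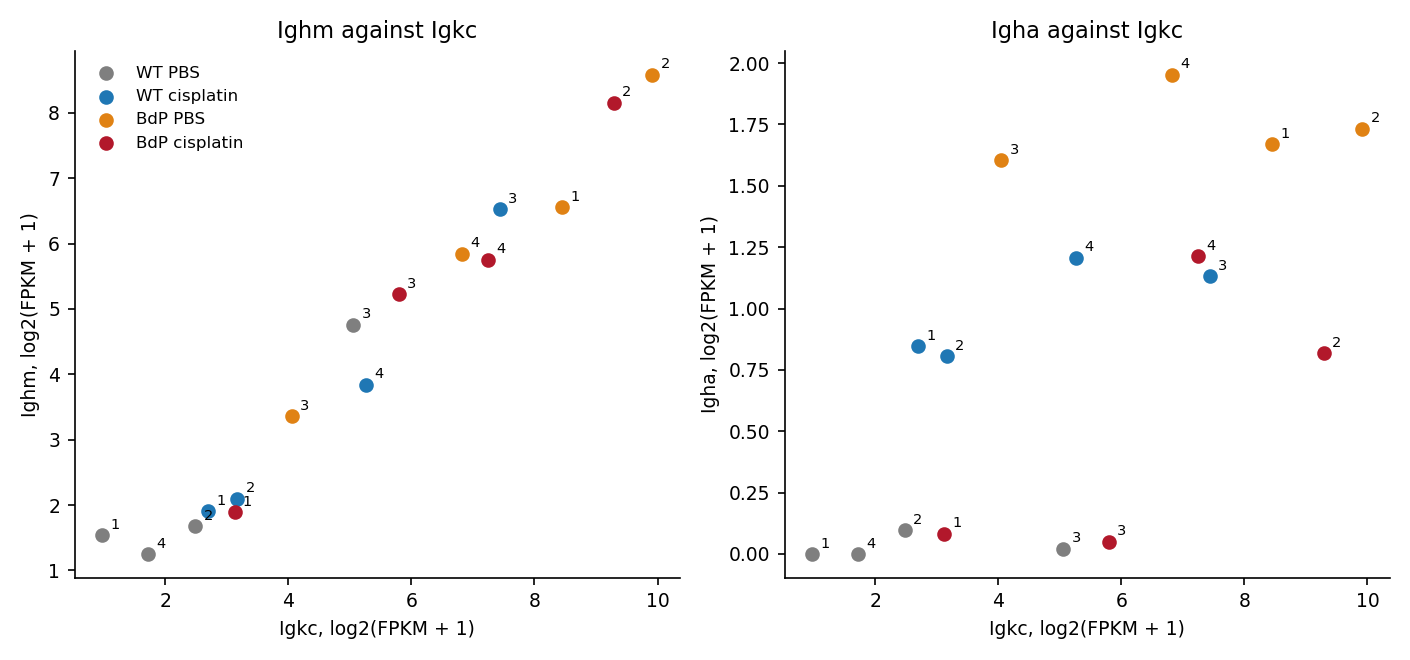
Levels of Ighm (left, vertical axis) and Igha (right, vertical axis) against Igkc (horizontal axes), all as log2(FPKM + 1); each point is 1 tumour, coloured by group and marked with its replicate number. Ighm rises along Igkc across all groups, whereas the BdP PBS tumours hold like levels of Igha at very different levels of Igkc.

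Differences between groups were fitted on the log2(FPKM + 1) scale with limma over all 16 tumours. That scale understates the change of genes near 0. The test covered the 12319 genes that reached 1 FPKM in 4 or more tumours, 8 of the 9 genes among them, and a call required an adjusted p (Benjamini-Hochberg, all genes tested) under 0.05. In bulk tumours, fewer cells of a type and less RNA per cell cannot be told apart. Contrasts that share a group are not independent, since they share its 4 tumours.

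In BdP against WT tumours under PBS, the contrast of tumour genotype without drug, all 8 genes tested had a higher fitted level in BdP. The median difference was 2.34 on the log2 scale, beside 0.01 over all genes tested, of which 51.3% were positive. Only Igha was called, at 1.71 ± 0.23 (moderated SE, adjusted p = 0.00245), and it ranked 9 of 12319 genes by p. Igha reached 1 FPKM in 7 tumours, among them all 4 of BdP PBS, so it entered the test only through the group where it was highest. With no filter on low values, limma gave it an adjusted p of 0.00544. The count of 1 among 8 stands beside a background of 0.99% of all genes called in this contrast, and Igha was the 1 gene of the 9 whose groups did not overlap. Of all genes tested, 3.36% had every BdP PBS tumour above every WT PBS tumour. Igkc had the largest fitted difference of the 8, 4.75 ± 1.46, and did not pass (adjusted p = 0.124). Ighd at 3.85 ± 1.33 (adjusted p = 0.158) and Ighm at 3.78 ± 1.38 (adjusted p = 0.171) did not pass either. The other 4 had fitted differences of 1.80 for Ighg1, 1.81 for Jchain, 2.33 for Ighg2c and 2.34 for Ighg2b, each with an adjusted p of 0.157 to 0.323. The unadjusted p was below 0.05 for 7 of the 8, all but Ighg2c, beside 19.3% of all genes. The genes other than Igha rise and fall together over the tumours (median rho 0.829). Counts of genes here and in the contrasts below are therefore not counts of separate observations. Without WT PBS 3 the difference of Igkc was 5.59 ± 1.52 (adjusted p = 0.0598), the nearest it came to the threshold when 1 tumour was left out.

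Under cisplatin, 0 of the 8 genes were called in BdP against WT in limma, beside 1.07% of all genes, and 0 had an unadjusted p below 0.05, beside 13.8%. The median difference was 0.65, with a higher fitted level in BdP for 7 of 8 genes. This median rested on single tumours: it was 0.29 without WT cisplatin 1, 0.31 without WT cisplatin 2, 0.38 without BdP cisplatin 4, 1.01 without BdP cisplatin 1 and 1.39 without WT cisplatin 3. Without the 3 libraries rich in mitochondrial reads it was 1.78, with Igkc at 3.43 ± 1.72 (adjusted p = 0.399). Only WT cisplatin 1 and 2 remained of the WT cisplatin group in that fit. Without BdP cisplatin 2, Ighg1 and Jchain turned to -0.03 and -0.01. With all tumours, Igkc stood at 1.72 ± 1.46, Ighm at 1.66 ± 1.38 and Ighd at 1.71 ± 1.33, while Jchain was at 0.22 ± 0.62. Igha was the 1 gene with a lower fitted level in BdP, at -0.46 ± 0.23 (adjusted p = 0.386). All 9 genes overlapped between these groups, while 13% of all genes tested did not overlap, in either direction. In limma voom on the recovered reads, 0 of the 8 were called as well.

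Cisplatin against PBS in WT tumours gave 0 calls among the 8 genes in limma, beside 0.00812% of all genes, and 1 unadjusted p below 0.05, beside 7.74% of all genes. That gene was Igha, at 0.97 ± 0.23 (adjusted p = 0.304), and it ranked 26 by p. Its groups did not overlap, and it was the 1 gene of the 9 of which this held, beside 1.75% of all genes tested with every WT cisplatin tumour above every WT PBS tumour. The other genes had fitted differences from -0.00 for Ighg1 to 2.09 ± 1.46 for Igkc, and limma voom on reads put Ighg1 at -0.97 and Ighg2b at -0.72. Their direction rested on WT cisplatin 3 and 4 and WT PBS 1, the 3 libraries rich in mitochondrial reads. Without these 3, the median of the 8 genes was -0.33, Igkc stood at -0.15 ± 1.81 and Ighm at -0.56 ± 1.73. That fit kept WT cisplatin 1 and 2, the lowest of their group in Igkc, and WT PBS 2, 3 and 4, which include the highest of theirs. Without WT cisplatin 3 alone, the median was 0.19. The part of mitochondrial reads in the difference was not tested.

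Cisplatin against PBS in BdP tumours also gave 0 calls among the 8 genes in limma, beside 0% of all genes, and 1 unadjusted p below 0.05, beside 4.4% of all genes. All 8 fitted differences were negative, with a median of -1.0. Igha was at -1.20 ± 0.23 and ranked 3 of 12319 genes by p, but its adjusted p was 0.369, and it was the 1 gene of the 9 whose groups did not overlap, beside 1.94% of all genes tested with every BdP cisplatin tumour below every BdP PBS tumour. Igkc was at -0.95 ± 1.46, Ighm at -0.83 ± 1.38, Ighd at -0.49 ± 1.33 and Jchain at -1.06 ± 0.62. The median of the 8 genes was -0.33 without BdP PBS 2, -0.56 without BdP cisplatin 1, -1.53 without BdP cisplatin 2 and -1.76 without BdP PBS 3. The direction of 4 genes turned in some alternatives. Without BdP cisplatin 1, Ighm was at 0.29, Ighd at 0.50 and Igkc at 0.13. Without BdP PBS 2, Ighm was at 0.00 and Ighd at 0.35. Ighg2c was at 0.30 without BdP PBS 1, 0.08 without BdP PBS 2, 0.04 with a pseudocount of 0.1 and 0.49 by limma voom. By limma voom on reads, 0 of the 8 were called.

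The interaction is the cisplatin difference in BdP minus that in WT. In limma, 0 of the 8 genes were called, beside 0% of all genes, and 1 had an unadjusted p below 0.05, beside 5.61%. All 8 were negative, with a median of -1.91, which was -1.13 without WT cisplatin 3 and -1.20 without BdP PBS 2. Igha, at -2.17 ± 0.32, had the smallest limma p of the 12319 genes, with an adjusted p of 0.0795 by the Benjamini-Hochberg method. It passed the threshold with a pseudocount of 5 (adjusted p = 0.0411) and without BdP cisplatin 4, where limma gave -2.39 and an adjusted p of 0.00528. It missed the threshold in the other 22 of 24 alternatives, and its adjusted p over all 24 ran from 0.00528 to 0.863. The highest came without the 3 libraries rich in mitochondrial reads, where Igha was at -1.99 ± 0.39, Igkc at -0.80 ± 2.29 and the median of the 8 genes was -0.79. With all tumours, Igkc was at -3.03 ± 2.06 (adjusted p = 0.845), and the other 6 genes lay between -1.50 and -2.14.

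**Figure D4:**
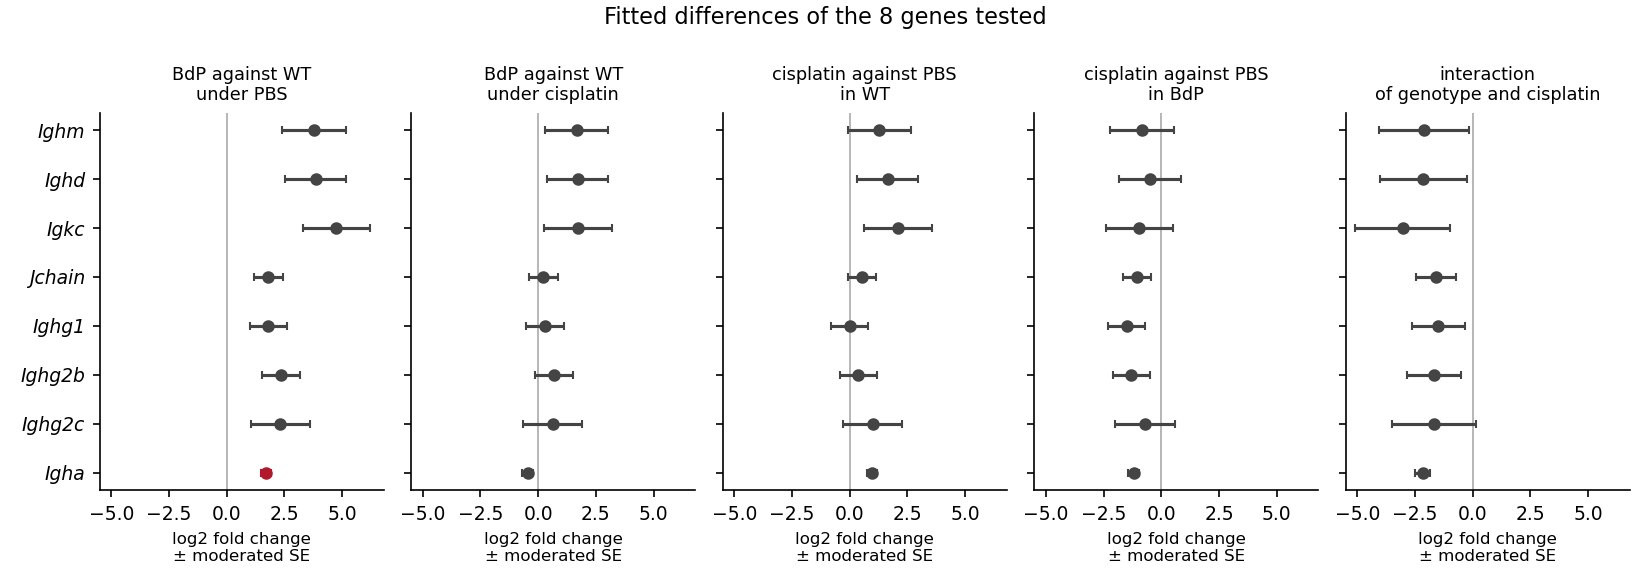
Fitted log2 fold change on the log2(FPKM + 1) scale (horizontal axes) with its moderated standard error for each of the 8 genes tested (vertical axis), in the 5 contrasts. Igha has the narrowest error of the 8 in every panel, and Igkc the largest fitted difference in BdP against WT under PBS.

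The mixture of heavy chain classes was compared in the 8 tumours with at least 1000 heavy chain reads, as shares of the summed FPKM of the 7 heavy chain genes. Ighm took 37.8% to 74.6% of it, with a median of 63.8%, and Ighd 4.91% to 32.3%, with a median of 21.5%. The gamma genes took 3.09% to 46.7%, with a median of 15.4%, and Igha 0.0411% to 3.30%. Ighm was thus the largest class in 7 of these 8 tumours, and the gamma genes together were in BdP PBS 1. The gamma share there was 44.8% of 13750 reads (95% Wilson interval 44.0% to 45.7%). BdP cisplatin 2 had the lowest gamma share, 3.22% of 19254 reads (2.98% to 3.48%). These intervals cover counting error within a tumour. Of the 8 tumours, 3 were BdP PBS, with gamma shares of 46.7%, 14.7% and 5.26%, and 3 were BdP cisplatin, with 3.09%, 9.90% and 16.1%, so these overlapped. No test was made, since the tumours were kept for their own number of heavy chain reads.

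WT PBS 3 had the fewest Ighd transcripts for its Ighm, at 6.71 FPKM of Ighd per 100 FPKM of Ighm, against a median of 37.8 in the 8 tumours. Ighg2c was the leading gamma gene in 7 of the 8, at 50% to 78.1% of gamma FPKM, and BdP PBS 4 was the exception at 23.8%. Igkc stood at 0.906 to 1.60 times the summed heavy chain FPKM. Jchain came to 0.376% to 2.31% of Igkc, lowest in BdP cisplatin 2 and highest in WT PBS 3 and BdP PBS 1, the tumours at 2.31% and 2.30%. The share of Igha differed widely among the tumours with fewer than 1000 heavy chain reads. Counted in reads, not FPKM, it was 22.2% of 266 in WT cisplatin 1 and 20.5% of 239 in WT cisplatin 2. It was 20.6% of 660 in BdP PBS 3 (Wilson 95% interval 17.7% to 23.9%) and 7.79% of 526 in WT cisplatin 4. As shares of FPKM, the measure used for the 8 tumours, these were 16.8%, 14.9%, 15.7% and 5.48%. In the others the share of reads was 1.50% of 334 in BdP cisplatin 1 and 2.19% of 137 in WT PBS 2. It was 0 of 92 and 0 of 9 in WT PBS 4 and 1 (upper Wilson limits 4.01% and 29.9%).

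**Figure D5:**
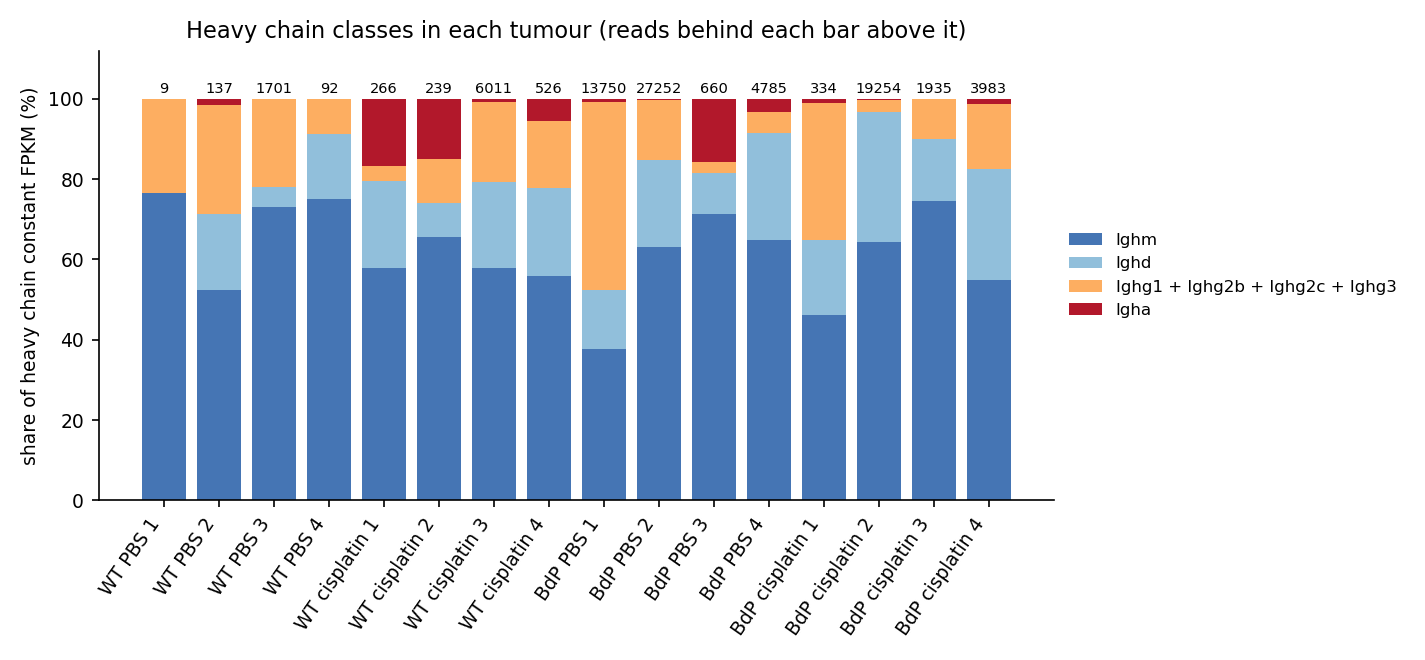
Share of the summed FPKM of the 7 heavy chain constant genes (vertical axis, %) taken by Ighm, Ighd, the 4 gamma genes and Igha in each of the 16 tumours (horizontal axis), with the heavy chain reads behind each bar printed above it. The gamma share is highest in BdP PBS 1 and the Igha share in WT cisplatin 1, WT cisplatin 2 and BdP PBS 3.

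Of the other constant genes, the lambda light chain genes Iglc1, Iglc2 and Iglc3 were, like Igkc, highest in BdP PBS 2. Iglc1 was at 21.6 FPKM in BdP cisplatin 3, beside 22.4 in BdP cisplatin 2 and 15.2 in BdP PBS 1, which is not the order of Igkc. Iglc2 averaged 0.341 ± 0.361 FPKM in WT PBS, 5.21 ± 8.90 in WT cisplatin, 33.0 ± 47.9 in BdP PBS and 21.6 ± 34.0 in BdP cisplatin (SD, n = 4). Iglc1 and Iglc3 had their highest tumour, BdP PBS 2, at 66.5 and 44.6 FPKM. Lambda took 5.83% to 35.6% of light chain FPKM in the 8 tumours, and BdP cisplatin 3 was the one at 35.6%. Ighe, the heavy chain of IgE, had at most 15 reads in any tumour, and Iglc4 had 2 reads in all 16 together. Reads also fell on the variable segments that are joined upstream of the constant genes. Of 218 segments in the table, 3 had reads in WT PBS 1, 153 in BdP PBS 2 and 162 in BdP cisplatin 2. All segments together held 3, 7236 and 4196 reads in these tumours, and the number of segments with reads depends on that total.

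B cell genes were high in the same tumours as Igkc. Over the 16 tumours, the 16 genes of a B cell list had a Spearman's rho with Igkc of 0.862 to 0.988 (median 0.949), a median rho with Jchain of 0.925, and a rho with Igha of 0.480 to 0.746 (median 0.652). The summed level of the list ran from 1.79 to 14.2 FPKM in WT PBS, from 3.54 to 124 in WT cisplatin, from 10.1 to 590 in BdP PBS and from 2.85 to 485 in BdP cisplatin. Cd79a, a signalling chain of the B cell receptor, was at 41.8, 188, 2.25 and 20.4 FPKM in BdP PBS and at 0, 1.47, 3.36 and 0.572 FPKM in WT PBS. All 16 genes had a positive fitted difference in BdP against WT under PBS, with a median of 2.07, and 0 passed in limma (Cd79a 3.76 ± 1.35, adjusted p = 0.167; Cd79b 3.12 ± 1.26, adjusted p = 0.203). Fcer2a, the low-affinity IgE receptor, stood at 2.79 ± 0.96 and did not pass either. None of the 16 was at 0 in all tumours of a group. What part the number of B cells has in the immunoglobulin levels was not tested.

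Genes of plasma cells and antibody secretion did not share that pattern as a list. Their rho with Igkc ran from -0.768 to 0.980 over the 13 of 16 tested, with a median of 0.312. Pou2af1, a gene of this list, was the one at 0.980. The 4 at the highest level, Creld2, Xbp1, Txndc5 and Ssr4, act in protein folding and secretion and are made by many cell types. Mzb1, a chaperone of antibody assembly in B lineage cells, was at 7.24, 21.5, 0.663 and 2.96 FPKM in BdP PBS and at 0.519 FPKM or less in WT PBS. Within BdP PBS this is the order of Igkc, whereas WT PBS 2, second in Igkc of its group, had 0 reads of Mzb1. Tnfrsf17, the plasma cell receptor BCMA, had 1 read in WT PBS 2, 1 read in WT cisplatin 1 and 0 in every other tumour. That is too few reads to compare the groups. Irf4 averaged 4.26 FPKM in BdP PBS and 0.799 in WT PBS, and Prdm1 0.995 and 0.386, while Txndc5 averaged 26.6 and 34.8. The median fitted difference of the list in BdP against WT under PBS was 0.35. It was positive for 11 of 13 genes, and 0 of 13 passed.

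Other cell type lists varied between tumours too. The summed level of 12 T cell genes, led by Trbc2, Trac, Lck and Cd2, ran from 1.01 to 109 FPKM in WT PBS, 3.59 to 83.3 in WT cisplatin, 17.5 to 335 in BdP PBS and 21.5 to 183 in BdP cisplatin. Their median rho was 0.779 with Igkc and 0.294 with Igha. Of 10 genes of lymph node stroma and lymphoid chemokines, Ccl19 and Ccl21a were at 0 in all 16 tumours. Sharing of their reads with similar genes was not checked, so a 0 does not show that they were absent. Cxcl13, Madcam1 and Glycam1 had group means below 0.07 FPKM. Pdpn reached at least 1 FPKM in all 16 tumours, with a mean of 14.9 FPKM. Ltb, a lymphotoxin made by lymphocytes, averaged 29.2 FPKM in BdP PBS and 4.83 FPKM in WT PBS. Lta averaged 1.61 and 0.449 FPKM in the same groups. Pdpn, Ltb and Lta, the 3 genes of this list tested, each had a higher fitted level in BdP than in WT under PBS. In 8 macrophage genes, led by C1qb, Cd68, C1qa and C1qc, the median rho with Igkc was 0.334. No gene of these lists was called in any of the 5 contrasts.

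Class switching and antibody receptors were read from fixed lists too. The DNA repair genes Msh6 and Ung, which other dividing cells use as well, had group means within 1.95 to 11.9 FPKM, and 0 of 7 genes of that list passed. Fcmr, the IgM receptor of B cells, averaged 0.457 FPKM in WT PBS and 32.9 FPKM in BdP PBS, and its difference of 3.42 ± 1.17 did not pass in limma (adjusted p = 0.157). The myeloid Fc receptor genes Fcer1g, Fcgr3 and Fcgr4 were expressed in all groups, and 0 of 8 genes of the receptor list passed. Pigr, the epithelial receptor that carries IgA and IgM across mucosa, had group means of at most 0.0438 FPKM. Of the cytokine list, Tgfb1 and Il10, signals that take part in switching to IgA, averaged 12.8 and 3.11 FPKM in BdP PBS, 9.17 and 0.826 in WT PBS, 6.45 and 1.91 in WT cisplatin, and 11.6 and 2.29 in BdP cisplatin. Ifng averaged 3.71 FPKM in BdP PBS, 3.08 in WT PBS, 0.422 in WT cisplatin and 3.61 in BdP cisplatin. Il4 averaged 1.51, 1.97, 1.52 and 0.712 FPKM in the same groups. Of the 4 genes tested, 0 passed in any contrast.

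The protein-coding genes most like each of Igkc, Jchain and Igha over the 16 tumours were found by Spearman's rho among those tested. For Igkc they were Ms4a1 (0.988), H2-DMb2 (0.982), Rasgrp2 (0.982), Pou2af1 (0.980) and Arhgef1 (0.976). For Jchain they were Fcrla (0.976), Pax5 (0.962), Dgka (0.953), H2-Ob (0.953) and Prkd2 (0.953). The cut fell within ties: B3gnt5 equalled Arhgef1 for Igkc, and Spib, a gene of the B cell list, equalled Dgka, H2-Ob and Prkd2 for Jchain. Ms4a1 encodes the B cell antigen CD20, Pax5 the B cell identity factor, and Pou2af1 a B cell coactivator of octamer promoters. For Igha they were Secisbp2 (0.932), Pank4 (0.884), Eps8l1 (0.864), Fbxo32 (0.855) and Setd1a (0.823). None of these is a B cell marker of the list. In all, 10890 genes were compared with each of the 3 over the 16 tumours, and the values of rho rank likeness without a test. Genes picked for likeness to Igha share its differences between groups by that choice, so these are not given.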

How the data were processed

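The deposited FPKM of 16 tumour libraries were used as the authors scaled them. Per the submitters' processing notes, CASAVA, HISAT2 2.0.5 and featureCounts 1.5.0-p3 were used with GRCm38 (mm10); annotation and strandedness are not given in the sources used here. Once multiplied by gene length, 100% of values fell on whole numbers of reads (tolerance 0.1 read), which gave reads and depth. Groups came from sample titles. Genes that reached 1 FPKM in 4 or more libraries were fitted as group means of log2(FPKM + 1) in limma 3.58.1 (R 4.3.3) with a mean-variance trend, over 5 contrasts and with Benjamini-Hochberg adjustment over all genes tested, and the fit was tested on simulated data. Errors are SD for FPKM and moderated SE for log2 differences. The genes and lists were chosen with earlier results of these data known. By a fixed rule, the text names all 9 genes, other constant genes, up to 4 genes per list with the highest mean FPKM, any list gene called, and the 5 genes most like Igkc, Jchain and Igha; the other genes named were picked afterwards for their roles. Sequences were read from GENCODE M21. Alternatives covered pseudocount, filter, scaling, samples fitted, replicate block and libraries left out. Protein sequences were not used here, and some genes of the lists are not reported here.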

Additional observations from a re-analysis of the deposited data

Results flagged for a closer look

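In 10 of 36 sets of 4 tumours (9 genes in 4 groups), the highest tumour stood apart in FPKM. The gap to the nearest other filled more than 0.829 of the range. For 4 normally distributed values that happens about 1 time in 20. Raw FPKM need not be so distributed, and the log2 scale was not examined, so 10 of 36 is not set against that rate. All 10 were WT tumours, and each was replicate 3. WT PBS 3 stood apart for Igkc (32.3 FPKM), Ighm (26.1 FPKM), Ighg2c (4.96 FPKM) and Ighg1 (1.96 FPKM). WT cisplatin 3 stood apart for Ighm (91.2 FPKM), Ighd (33.7 FPKM), Ighg2c (24.6 FPKM), Ighg2b (4.36 FPKM), Jchain (3.55 FPKM) and Ighg1 (2.36 FPKM). The genes rise and fall together, so these are not 10 separate observations. Neither Igha nor any BdP group was among them. WT cisplatin 3 was 1 of the 3 libraries rich in mitochondrial reads, and WT PBS 3 was not.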

How the results depend on the processing

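In BdP against WT under PBS, 1 of the 9 genes was called. That count was 6 with TPM, a scaling that moved the median of all genes in this contrast from 0.01 to 0.82 (Igkc 5.52, adjusted p = 0.00163; Ighm 4.68, adjusted p = 0.00624 in limma), and the split of all calls from 51 higher and 71 lower to 91 and 1; it moved that median to 0.70 for cisplatin in WT and to -0.65 for the interaction. The count was 0 with at least 1 FPKM asked in at least 8 libraries, a filter that left 4 of the 9 genes in the test and dropped Igha. Igha was called there in 25 of 25 alternatives that tested it, with an adjusted p of 0.000952 to 0.0253. For the interaction, 0 genes were called in the main analysis, 1 with a pseudocount of 5, and 0 to 1 when 1 library was left out. In the other 3 contrasts the count was 0 in every alternative. No called difference changed sign. With the replicate block, 1 gene was called in BdP against WT under PBS, again Igha, and 0 in each other contrast. In 24 same-number pairs from different groups, deviations from group means correlated at -0.613 to 0.415 (median 0.02). In 72 other-number pairs they correlated at -0.542 to 0.569 (median -0.008). Such values cannot show whether the numbers mark a shared day or batch. Calls over all genes in BdP against WT under PBS were 122 in the main analysis, 81 with the replicate block, 50 without the 3 libraries rich in mitochondrial reads, 56 with no filter, 5 with TPM without mitochondrial genes, and 3 when the 2 groups were fitted alone; leaving out 1 library gave 25 (BdP PBS 4) to 359 (WT PBS 3). Under cisplatin they were 132, and 15 with TPM, 44 without those 3 libraries, and 46 (without WT cisplatin 1) to 309 (without WT PBS 1). Depth limits WT PBS 1 most, with 9 heavy chain reads.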
